A study of Mus musculus with 9 samples.

Results

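The genes described here encode the receptors for glutamate, GABA, glycine and, at nicotinic sites, acetylcholine, and they were measured by RNA sequencing in the trigeminal ganglion (TG), the sensory ganglion that holds the neurons of the face and the temporomandibular joint (TMJ). Members were chosen by symbol alone, as the subunits of the AMPA, kainate, delta and NMDA receptors, the metabotropic glutamate receptors, the GABA-A and GABA-B receptors, the glycine receptors and the nicotinic receptors. This gave 68 genes with 295 transcripts, of 21809 genes with a matched transcript in the mRNA table. Of the 68 genes, 58 had a mean of at least 0.1 FPKM (a fragment count divided by transcript length and library depth) over the 9 libraries and were tested.

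The mice were male wild-type C57BL/6 animals of 8 weeks. The saline group (replicates 1 to 3) received 10 μl of saline into the TMJ and is labelled day 3. The CFA groups received 10 μl of complete Freund's adjuvant (CFA, 5 mg/ml), an oil emulsion with killed mycobacteria that inflames the joint, and were taken on day 3 (CFA3D, replicates 1 to 3) or day 6 (CFA6D, replicates 4 to 6). No saline group of day 6 was among the libraries, so day and treatment cannot be told apart in the CFA6D comparison with saline. Each library pooled the ganglia of 3 mice, so that the spread between replicates is a spread between pools.

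Ionotropic receptors are channels built from several subunits that open when the transmitter binds, whereas metabotropic glutamate receptors and the GABA-B receptor signal through G proteins. In sensory neurons these receptors sit on the central terminals, on peripheral endings and on the cell body in the ganglion, where GABA depolarises the neuron because its chloride concentration is kept high by the transporter Slc12a2. A functional NMDA receptor needs Grin1 together with a Grin2 or Grin3 subunit, the GABA-B receptor needs Gabbr1 with Gabbr2, and the beta subunit of the glycine receptor (Glrb) needs an alpha subunit to bind glycine.

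The step between low values put the depth at about 30.0 to 42.2 M read pairs per library and the worth of a single read pair in a 1-kb transcript at 0.0237 to 0.0333 FPKM. The 7 pan-neuronal markers were detected in all 9 libraries, with a summed level of 1911 FPKM in saline replicate 3 and 2195 to 2811 FPKM in the others. Saline replicate 3 stood apart. Its summed level of 5 pituitary markers was 10611 FPKM, against 8.89 to 1114 FPKM in the other libraries, and its sum of 6 markers of central glia was 409 FPKM, against 29.3 to 258 FPKM. For Glra1, Grin2a, Grm5, Gabra3, Grm4, Gabbr2 and Grik4, differences from saline are given with and without saline replicate 3. CFA6D replicate 4 had the lowest central glia sum (29.3 FPKM, against 149 to 409 FPKM elsewhere) and the highest neuron sum (2811 FPKM). It was the highest library for 13 of the 58 tested members, against 10.5% of all genes. Saline replicate 3 was the highest for 18, against 11.5% of all genes. In whole ganglia, fewer cells of a type and less RNA per cell cannot be told apart.

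Several members exist in alternative forms, and the exons and start regions by which these forms differ are shown because the forms' values are compared further on. All sequences are from GRCm38 and read along the gene. A coding exon of 45 bases in Grik1 (chr16:87955289-87955333, minus strand) and a coding exon of 111 bases in Grin1 (chr2:25294438-25294548, minus strand), the C1 cassette, are included or skipped.
Grik1 exon: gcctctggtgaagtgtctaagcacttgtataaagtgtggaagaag
Grin1 exon: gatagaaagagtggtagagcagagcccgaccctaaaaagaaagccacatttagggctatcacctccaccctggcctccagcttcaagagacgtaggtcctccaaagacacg

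The AMPA receptor genes use either of a pair of exons, named flip and flop, which encode the same stretch of the ligand-binding domain and set how fast the channel desensitises. In Gria2 both exons are 115 bases long (flip chr3:80690404-80690518 and flop chr3:80691320-80691434, minus strand), and they differ at 36 positions, shown in capitals.
Gria2 flip: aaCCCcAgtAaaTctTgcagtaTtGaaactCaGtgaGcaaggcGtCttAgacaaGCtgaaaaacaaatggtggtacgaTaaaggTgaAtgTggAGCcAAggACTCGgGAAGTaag
Gria2 flop: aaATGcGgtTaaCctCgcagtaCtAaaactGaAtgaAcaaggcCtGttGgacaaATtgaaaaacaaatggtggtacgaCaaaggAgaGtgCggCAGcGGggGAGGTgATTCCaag

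Gabbr1 is transcribed from separate start sites that give the long GABA-B1a and the short GABA-B1b form. The internal start lies 4665 bases downstream of the upstream start, in sequence that overlaps none of the exons of the upstream form. Windows of 300 bases around the upstream start (chr17:37045716-37046015, plus strand) and the internal start (chr17:37050381-37050680, plus strand) are shown. The upstream window is from the RefSeq promoter table, and the internal one was read at the start of the GENCODE transcript. Capitals mark GGGCGG (a GC box, searched on both strands) and TGACGTCA (a cyclic AMP response element, the same on both strands).
Gabbr1 upstream start: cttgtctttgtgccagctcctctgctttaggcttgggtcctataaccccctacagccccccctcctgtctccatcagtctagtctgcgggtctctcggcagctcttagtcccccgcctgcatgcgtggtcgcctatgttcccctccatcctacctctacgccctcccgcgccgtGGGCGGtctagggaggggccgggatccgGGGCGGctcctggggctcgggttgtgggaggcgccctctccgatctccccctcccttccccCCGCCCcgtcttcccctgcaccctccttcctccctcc
Gabbr1 internal start: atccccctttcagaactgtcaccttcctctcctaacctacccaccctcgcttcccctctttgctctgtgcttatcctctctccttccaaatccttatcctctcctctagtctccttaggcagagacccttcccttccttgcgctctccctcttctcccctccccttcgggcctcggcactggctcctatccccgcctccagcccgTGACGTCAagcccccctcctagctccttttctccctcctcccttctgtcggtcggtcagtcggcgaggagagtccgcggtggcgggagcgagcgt

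The upstream window held 3 GC boxes and no TGACGTCA, and the internal window held no GC box and 1 TGACGTCA, 45 bases before the start. The RefSeq table had 56 windows for 48 of the member genes. GGGCGG was in 28 of the 56 member windows (50%) and in 35.7% of all 32851 windows. TGACGTCA was in 0 of the 56 and in 1.79% of all windows. These matches describe the letters only.

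The levels of the members in the ganglion spread over several orders of magnitude. Among the 68 genes, 35 had a mean of at least 1 FPKM and 11 a mean of at least 10 FPKM. The summed level of all members was 339 to 406 FPKM per library. GABA-B subunits made up 26.5% of it, GABA-A subunits 17.8%, kainate subunits 14.0%, NMDA subunits 10.3%, neuronal nicotinic subunits 9.03%, AMPA subunits 7.32%, glycine receptor subunits 6.53% and metabotropic glutamate receptors 6.51%. Over the 9 libraries, 33 of the 58 tested genes had a coefficient of variation under 20%, and it was 4.76% for Grin3a. All levels compared between genes here are FPKM, which are per transcript length.

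**Figure D1:**
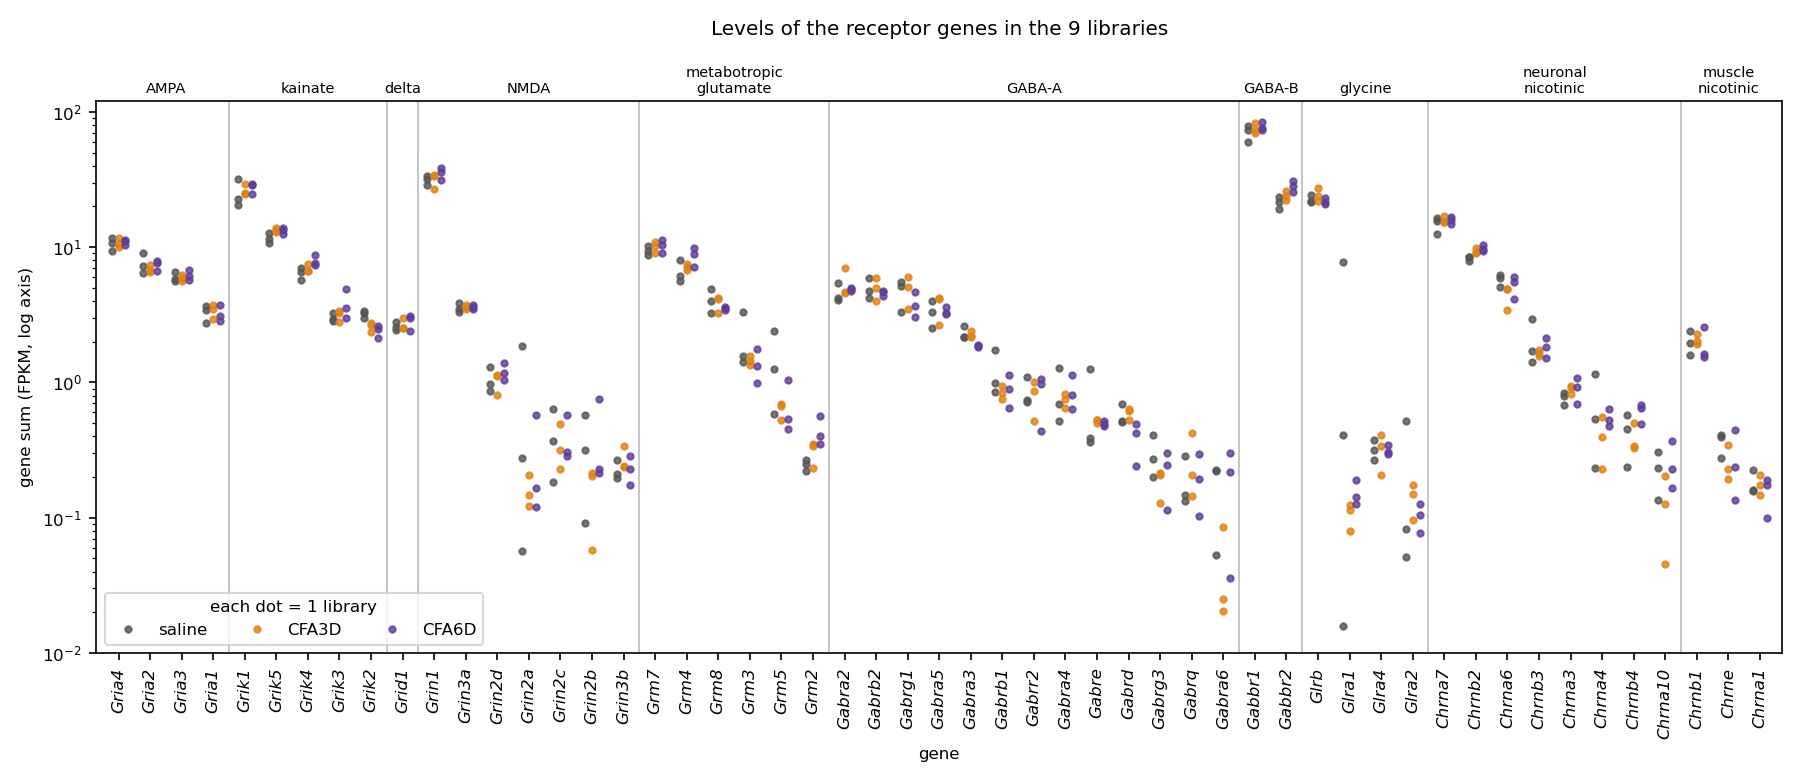
Level of 53 of the 58 tested receptor genes (FPKM of the gene sum, log axis), grouped by family and ordered by mean level. Each dot is 1 library, coloured by group. Gabbr1 is the highest member in every library (60.0 to 84.0 FPKM), and Glra1 has a single high library, saline replicate 3 (7.82 FPKM).

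The GABA-B receptor had the highest member. Gabbr1 (ENSMUSG00000024462), the subunit that binds GABA, was at 78.1, 60.0 and 73.5 FPKM in saline replicates 1 to 3, at 69.6, 82.7 and 73.8 FPKM in CFA3D and at 84.0, 75.5 and 73.8 FPKM in CFA6D. Gabbr2, the subunit that couples to G proteins, was the fourth highest member, at 23.5, 21.5 and 19.0 FPKM in saline. Gabbr1 exceeded Gabbr2 in every library, by 2.62-fold to 3.86-fold.

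Among the 19 GABA-A subunit genes, 16 were tested and 8 had a mean of at least 1 FPKM. Gabra2 averaged 4.97 ± 0.889 FPKM (SD, n = 9 libraries), Gabrb2 4.83 ± 0.686 and Gabrg1 4.44 ± 1.09, which differed by less than their spread. Of the subunits of extrasynaptic receptors, Gabra5 was at 3.44 ± 0.617, Gabra4 at 0.809 ± 0.244 and Gabrd at 0.517 ± 0.134 FPKM. Other subunits were also low, with Gabra3 at 2.14 ± 0.259, Gabrb1 at 0.977 ± 0.315 and Gabrg3 at 0.233 ± 0.0901 FPKM. Gabrr1, Gabrr3 and Gabrp were not tested, with highest libraries of 0.113, 0.0869 and 0.0297 FPKM.

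Many subunit genes lie side by side: 27 of the 68 formed 10 clusters with gaps under 1 Mb. Neighbours could differ widely in level. On chromosome 11, Gabra6 averaged 0.132 ± 0.108 FPKM (SD, n = 9) and lay beside Gabrb2 at 4.83 ± 0.686. On chromosome 3, Glrb at 23.0 ± 2.06 FPKM stood beside Gria2 at 7.29 ± 0.840. Gabra4 and Gabrb1 overlap over 196 bases on opposite strands, and Gabra5 also overlaps a gene on the other strand. The methods describe a stranded kit, but the sources do not say whether strand was used in counting, so the split of reads between such partners is uncertain.

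Among the NMDA receptor genes the obligatory subunit Grin1 was far above its partners. Grin1 was at 33.4, 28.9 and 31.8 FPKM in saline, at 34.4, 26.7 and 33.5 FPKM in CFA3D and at 38.5, 31.2 and 36.0 FPKM in CFA6D. Grin3a came next at 3.60 ± 0.171 FPKM (SD, n = 9), followed by Grin2d at 1.09 ± 0.192. Grin2a, Grin2b and Grin2c each averaged under 0.4 FPKM. Grin1 exceeded the sum of the 4 Grin2 genes by 10.9-fold to 24.6-fold in 8 libraries and by 7.29-fold in saline replicate 3.

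Kainate receptor subunits were prominent. Grik1 averaged 26.4 ± 3.67 FPKM (SD, n = 9), Grik5 12.7 ± 1.05, Grik4 7.08 ± 0.841, Grik3 3.34 ± 0.653 and Grik2 2.73 ± 0.402. Grik1 encodes a pore-forming subunit typical of small sensory neurons, and Grik4 and Grik5 encode the high-affinity subunits that need a partner of the Grik1 to Grik3 group. AMPA receptor genes lay in a narrower range, with Gria4 at 10.7 ± 0.796 FPKM, Gria2 at 7.29 ± 0.840, Gria3 at 6.05 ± 0.420 and Gria1 at 3.30 ± 0.388. Grid1, a delta receptor, averaged 2.70 ± 0.268 FPKM.

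The metabotropic glutamate receptors of the highest level were those that couple to Gi and lower cyclic AMP. Grm7 averaged 9.89 ± 0.906 FPKM (SD, n = 9), Grm4 7.46 ± 1.34 and Grm8 3.81 ± 0.543. Grm3 averaged 1.64 ± 0.672 and Grm2 0.331 ± 0.109 FPKM. The Gq-coupled receptor Grm5 averaged 0.908 ± 0.621 FPKM, with saline replicate 3 the highest library. Grm6, the receptor of retinal ON bipolar cells, reached at most 0.0280 FPKM.

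In the glycine receptor family, Glrb was at 24.3, 21.6 and 22.1 FPKM in saline, 23.9, 21.8 and 27.5 FPKM in CFA3D and 22.9, 20.9 and 21.5 FPKM in CFA6D. Its alpha partners were low. Glra4 averaged 0.318 ± 0.0596 FPKM (SD, n = 9), Glra2 0.154 ± 0.142, and Glra3 reached at most 0.0407 FPKM. Glrb exceeded the sum of the 4 alpha genes by 25.7-fold to 57.4-fold in 8 libraries and by 2.56-fold in saline replicate 3.

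Chrna7, which forms a homomeric nicotinic receptor, averaged 15.5 ± 1.30 FPKM (SD, n = 9). Chrnb2, the beta subunit of heteromeric receptors, averaged 9.14 ± 0.762, Chrna6 5.12 ± 0.907 and Chrnb3 1.83 ± 0.456. The cluster on chromosome 9 was low, with Chrna3 at 0.852 ± 0.125, Chrnb4 at 0.472 ± 0.151 and Chrna5 at 0.0462 ± 0.0268 FPKM. Chrna9 was listed at 0 in 5 libraries and reached 0.121 FPKM in saline replicate 3, and Chrna2 reached at most 0.0628 FPKM. Of the muscle subunits, Chrnb1 averaged 1.99 ± 0.364 FPKM and Chrne 0.296 ± 0.108. Chrna1 stayed between 0.0993 and 0.225 FPKM, Chrng reached at most 0.0936 and Chrnd at most 0.0222, while the summed level of 6 skeletal muscle markers varied from 1.18 to 139 FPKM.

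The comparison of CFA3D with saline asks which receptor genes differ early in the inflammation. None of the 58 tested members had an adjusted p under 0.05 in limma, and the background was also 0% of 16096 genes. At an unadjusted p under 0.05, 1 member of 58 was higher, against 3.65% of all genes, and 1 was lower, against 0.801% of all genes. Groups did not overlap for 4 of 58 members (6.9%), against 9.13% of all genes. The median log2 difference was −0.01 over the members and 0.05 over all genes. Centred on the 7 neuronal markers, the split was 0 higher (all genes 0.0994%) and 2 lower (3.45%, against 2.85% of all genes), with member and all-gene medians of −0.20 and −0.13.

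Grik5 was the higher member on day 3. It was at 10.7, 11.4 and 12.7 FPKM in saline and at 13.3, 13.8 and 12.9 FPKM in CFA3D, a log2 difference of 0.20 ± 0.09 (SE, limma unadjusted p = 0.0403, adjusted p = 0.997), which was 0.01 after centring on neuronal markers. Grik2, another kainate subunit, was the lower one, at 3.35, 2.98 and 3.27 FPKM in saline and 2.36, 2.74 and 2.65 FPKM in CFA3D. Its log2 difference was −0.30 ± 0.13 (SE, limma unadjusted p = 0.0471, adjusted p = 0.997), and 0.25 when its highest transcript replaced the gene sum. The groups did not overlap for either gene, nor for Chrnb2, which was higher, and Chrna6, which was lower.

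On day 6 more members had an unadjusted p under 0.05, beside a larger background. None of the 58 reached an adjusted p under 0.05 in limma, and the smallest was 0.204. At an unadjusted p under 0.05, 6 of 58 were higher (10.3%, against 8.22% of all genes) and 2 were lower (3.45%, against 2.85% of all genes). Without CFA6D replicate 4, 2 of 58 had an unadjusted p under 0.05 in either direction (3.45%, against 8.93% of all genes). Groups did not overlap for 7 members (12.1%), against 16.2% of all genes. The median log2 difference was 0.01 over the members and 0.03 over all genes. When each library was centred on the 7 pan-neuronal markers, the split became 0 higher (all genes 0.746%) and 8 lower (13.8%, against 13.4% of all genes), with a median of −0.22 over the members and −0.20 over all genes.

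**Figure D2:**
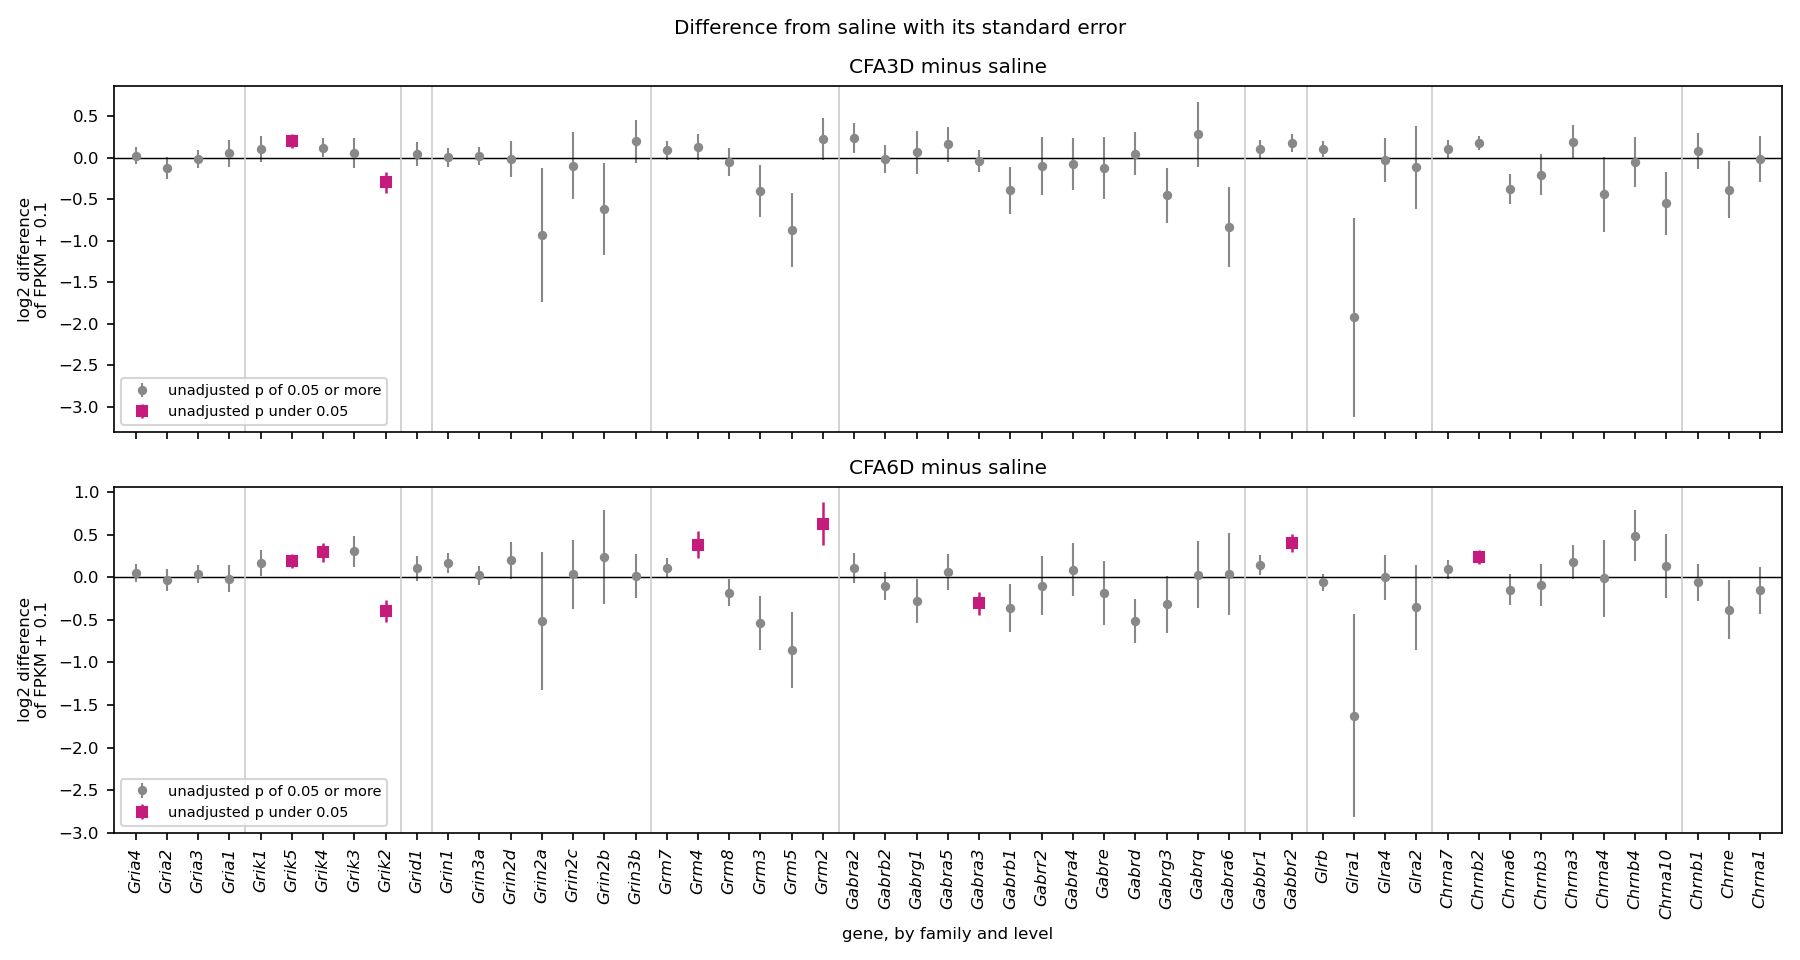
Log2 difference of FPKM + 0.1 from saline for 53 of the 58 tested members on day 3 (top) and day 6 (bottom), with the limma standard error. Squares mark an unadjusted p under 0.05 (2 genes on day 3 and 8 on day 6, against 4.45% and 11.1% of all genes). None has an adjusted p under 0.05. Centred on neuronal markers, 0 members are higher at an unadjusted p under 0.05, against 0.0994% and 0.746% of all genes.

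Gabbr2 had the smallest p of the members on day 6. It was at 23.5, 21.5 and 19.0 FPKM in saline, at 24.1, 22.3 and 25.9 FPKM in CFA3D and at 31.1, 25.4 and 28.2 FPKM in CFA6D. All CFA6D libraries were above all saline libraries, with a log2 difference of 0.40 ± 0.11 (SE, limma unadjusted p = 0.00434, adjusted p = 0.204). Without saline replicate 3 the Gabbr2 difference was 0.32. Its partner Gabbr1 differed by 0.15 ± 0.11 on the log2 scale (limma unadjusted p = 0.227, adjusted p = 0.686).

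The kainate subunits differed in both directions. Grik4 was at 6.96, 6.51 and 5.74 FPKM in saline and at 8.70, 7.60 and 7.32 FPKM in CFA6D, without overlap (log2 difference 0.29 ± 0.11 SE, limma unadjusted p = 0.0259, adjusted p = 0.367). Without saline replicate 3 the Grik4 difference was 0.22. Grik5 was at 13.8, 12.6 and 13.3 FPKM in CFA6D, and its range overlapped that of saline (0.19 ± 0.09, limma unadjusted p = 0.0495, adjusted p = 0.450). Grik2 was lower, at 2.50, 2.14 and 2.62 FPKM, below every saline library (−0.39 ± 0.13, limma unadjusted p = 0.0143, adjusted p = 0.305). With its highest transcript in place of the gene sum, the Grik2 difference was −0.04. Grik1, the most abundant, differed by 0.17 ± 0.15 (limma unadjusted p = 0.297, adjusted p = 0.724).

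Among the Gi-coupled glutamate receptors, Grm4 was at 8.08, 6.16 and 5.60 FPKM in saline and at 8.92, 7.10 and 9.90 FPKM in CFA6D, with overlap (log2 difference 0.38 ± 0.16 SE, limma unadjusted p = 0.0377, adjusted p = 0.415). Without saline replicate 3 the Grm4 difference was 0.28. Grm2 was low throughout, at 0.248, 0.265 and 0.222 FPKM in saline and 0.567, 0.401 and 0.353 FPKM in CFA6D, without overlap (0.63 ± 0.25, limma unadjusted p = 0.0337, adjusted p = 0.402).

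The nicotinic subunit Chrnb2 was at 8.48, 7.89 and 8.49 FPKM in saline and at 10.4, 9.30 and 9.64 FPKM in CFA6D, without overlap (log2 difference 0.23 ± 0.08 SE, limma unadjusted p = 0.0186, adjusted p = 0.329). Chrna7 differed by 0.09 ± 0.11 (limma unadjusted p = 0.405, adjusted p = 0.786). The GABA-A subunit Gabra3 was at 2.17, 2.19 and 2.61 FPKM in saline and at 1.85, 1.83 and 1.88 FPKM in CFA6D, lower without overlap (−0.30 ± 0.13, limma unadjusted p = 0.0458, adjusted p = 0.438). Without saline replicate 3 its log2 difference was −0.22. Gabrd, typical of extrasynaptic receptors, was also lower without overlap, at 0.522, 0.510 and 0.695 FPKM in saline and 0.420, 0.240 and 0.489 FPKM in CFA6D (limma unadjusted p = 0.0782, adjusted p = 0.516).

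Neuronal markers were higher in the same libraries. All 7 had higher means in CFA6D than in saline, where 8762 of 16096 genes had a positive log2 difference. Of the 7, 3 had an unadjusted p under 0.05 (all genes 8.22% higher). All 7 were also higher in CFA3D, 1 at an unadjusted p under 0.05 (all genes 3.65% higher). Their median log2 difference was 0.19 on either day. Rbfox3, which encodes the neuronal splicing factor NeuN, was at 29.6, 30.7 and 38.9 FPKM in saline and at 59.3, 45.7 and 53.2 FPKM in CFA6D (log2 difference 0.67 ± 0.13 SE, limma adjusted p = 0.106). Relative to the 7 neuronal markers, Gabbr2 differed by 0.17 (limma unadjusted p = 0.0721), Grm4 by 0.16, Grik4 by 0.07 and Chrnb2 by 0.01 on the log2 scale. Grik5 turned to −0.04. Centring lowered the difference of each gene by the same amount, so the lower members moved further, Grik2 to −0.62 and Gabra3 to −0.53. Of 5 fibroblast markers, 3 were lower in CFA6D at an unadjusted p under 0.05, against 2.85% of all genes. Col3a1, Dcn and Lum had log2 differences of −0.53, −0.50 and −0.49 (limma adjusted p = 0.404, 0.399 and 0.239). Pdgfra differed by −0.12, and Col1a1 went the other way (0.60, limma unadjusted p = 0.289). The part of neuronal and fibroblast content in these differences was not tested further.

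**Figure D3:**
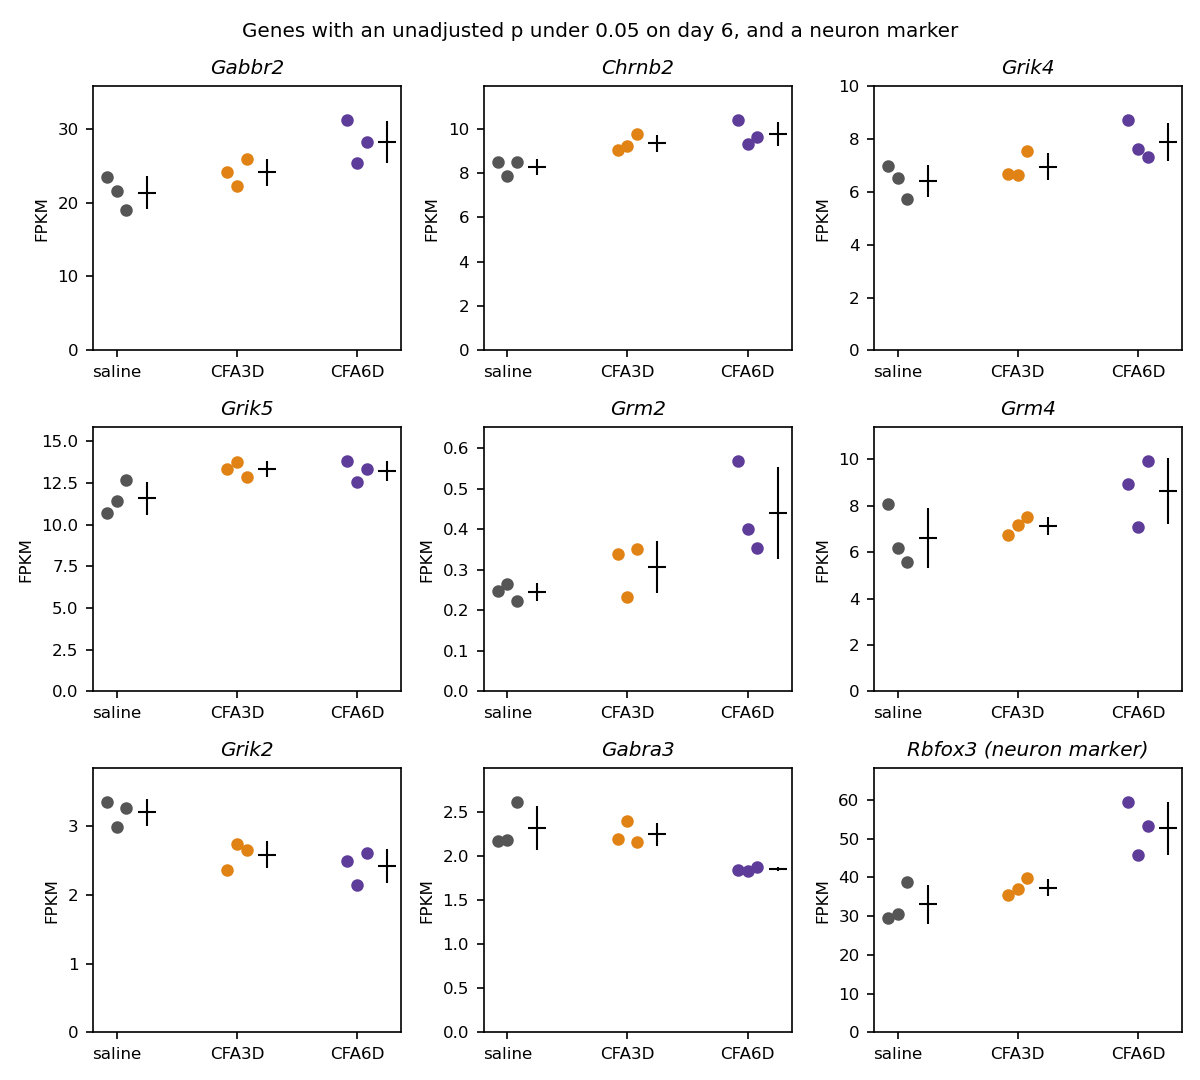
FPKM in each library of the 8 members with an unadjusted p under 0.05 on day 6 and of the neuron marker Rbfox3. Dots are libraries in replicate order, and the bar beside them is the mean ± SD (n = 3). None has an adjusted p under 0.05. Centred on neuronal markers, 0 of the 58 tested members are higher at an unadjusted p under 0.05, against 0.746% of all genes.

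Directly compared, CFA6D and CFA3D differed in no member at an unadjusted p under 0.05 (0 of 58, against 3.06% of all genes higher and 4.34% lower) or at an adjusted p under 0.05 in limma (all genes 0%). Groups did not overlap for 5 members (8.62%), against 16.7% of all genes. The 3 members with the largest differences were low in level. Gabra6 was at 0.0252, 0.0205 and 0.0849 FPKM on day 3 and 0.0361, 0.218 and 0.301 FPKM on day 6 (log2 difference 0.88 ± 0.48 SE, limma unadjusted p = 0.10, adjusted p = 0.70). Grin2b came next, with means of 0.157 FPKM on day 3 and 0.399 FPKM on day 6, without overlap (0.86 ± 0.55, limma adjusted p = 0.730). Chrna10 followed (0.68 ± 0.38, limma adjusted p = 0.703).

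With both CFA days against saline, 3 of 58 members were higher at an unadjusted p under 0.05 (5.17%, against 6.78% of all genes) and 1 was lower (1.72%, against 1.41%), with none at an adjusted p under 0.05 in limma. The higher ones were Gabbr2 (log2 difference 0.29 ± 0.09 SE, adjusted p = 0.429), Chrnb2 (0.20 ± 0.07, adjusted p = 0.487) and Grik5 (0.20 ± 0.07, adjusted p = 0.512). Without saline replicate 3 the Gabbr2 difference was 0.21. The lower one was Grik2 (−0.35 ± 0.11, adjusted p = 0.448), below every saline library in all 6 CFA libraries. After centring on neuronal markers Chrnb2 and Grik5 turned to −0.01 each, and the split was 0 higher (all genes 0.292%) and 4 lower (6.9%, against 9.1% of all genes). These comparisons share the saline libraries.

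Glra1 had the largest difference in size on both days, and it was high in saline replicate 3. The gene encodes the alpha subunit of the adult spinal and brainstem glycine receptor. It was at 0.0157, 0.411 and 7.82 FPKM in saline, at 0.0793, 0.114 and 0.124 FPKM in CFA3D and at 0.126, 0.143 and 0.190 FPKM in CFA6D. These levels correspond to about 733 read pairs in saline replicate 3 and at most 29.5 in the other libraries. Its log2 difference from saline was −1.92 ± 1.19 on day 3 (SE, limma unadjusted p = 0.140, adjusted p = 0.997) and −1.63 ± 1.19 on day 6 (unadjusted p = 0.204, adjusted p = 0.670). Without saline replicate 3 these differences were −0.25 and 0.05.

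Saline replicate 3 exceeded the median of the other 8 libraries at least 2-fold for 11 of the 58 members (19%), against 3.47% of all genes. In the other libraries it was 0 to 4 members. Over all genes CFA6D replicate 6 had the highest share (6.74%, with 4 of the 58 members, 6.9%), and the other 7 libraries had 0.770% to 2.30%. Beside Glra1 (62.7-fold), the 11 included Grin2a (11.8-fold), Glra2 (5.14-fold), Grm5 (3.83-fold), Gabra6 (3.25-fold), Grin2b (2.69-fold), Gabre (2.51-fold), Grm3 (2.34-fold), Chrna4 (2.32-fold) and Grin2c (2.06-fold). Grin2a was at 1.86 FPKM in this library and at 0.0569 to 0.574 FPKM elsewhere. Without it, the day 3 difference of Grin2a, −0.93 with all libraries, was 0.08. The day 6 difference of Grm5 went from −0.85 to −0.39. CFA6D replicate 6 was the highest library for Grin2b, at 0.755 FPKM, and for Gabra6, at 0.301 FPKM.

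Saline replicate 3 was the highest library for 6 of 6 markers of central glia, 4 of 5 of the pituitary and 4 of 7 of central neurons. Slc32a1, the vesicular transporter of GABA and glycine, was at 0.946 FPKM in saline replicate 3 and at 0.0169 to 0.432 FPKM elsewhere. Gad2, which makes GABA, was at 0.573 FPKM against 0.0409 to 0.298, and Slc6a5, the neuronal glycine transporter, at 0.728 against 0 to 0.258. Among central glia markers, Mog was at 27.5 FPKM against 1.82 to 17.1 elsewhere. Of the 7 central neuron markers, 6 were detected in all 9 libraries, and the summed level was 39.3 FPKM in saline replicate 3 and 33.6 to 60.0 FPKM elsewhere, of which Slc17a7, also a gene of sensory neurons, was 24.1 FPKM in saline replicate 3. Camk2a, of the same list, was lowest in saline replicate 3, at 9.99 FPKM against 10.4 to 15.8 elsewhere, and Neurod6 was highest in CFA6D replicate 6, at 0.127 FPKM against 0.0223 in saline replicate 3. The pituitary hormone Gh was at 9120.1 FPKM against 5.10 to 742 elsewhere. Pomc, another pituitary marker, was at 245 FPKM in saline replicate 3 and at 282 and 343 FPKM in CFA6D replicates 4 and 5. The part of such tissue in the levels of Glra1, Grin2a and the other 9 genes was not tested.

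**Figure D4:**
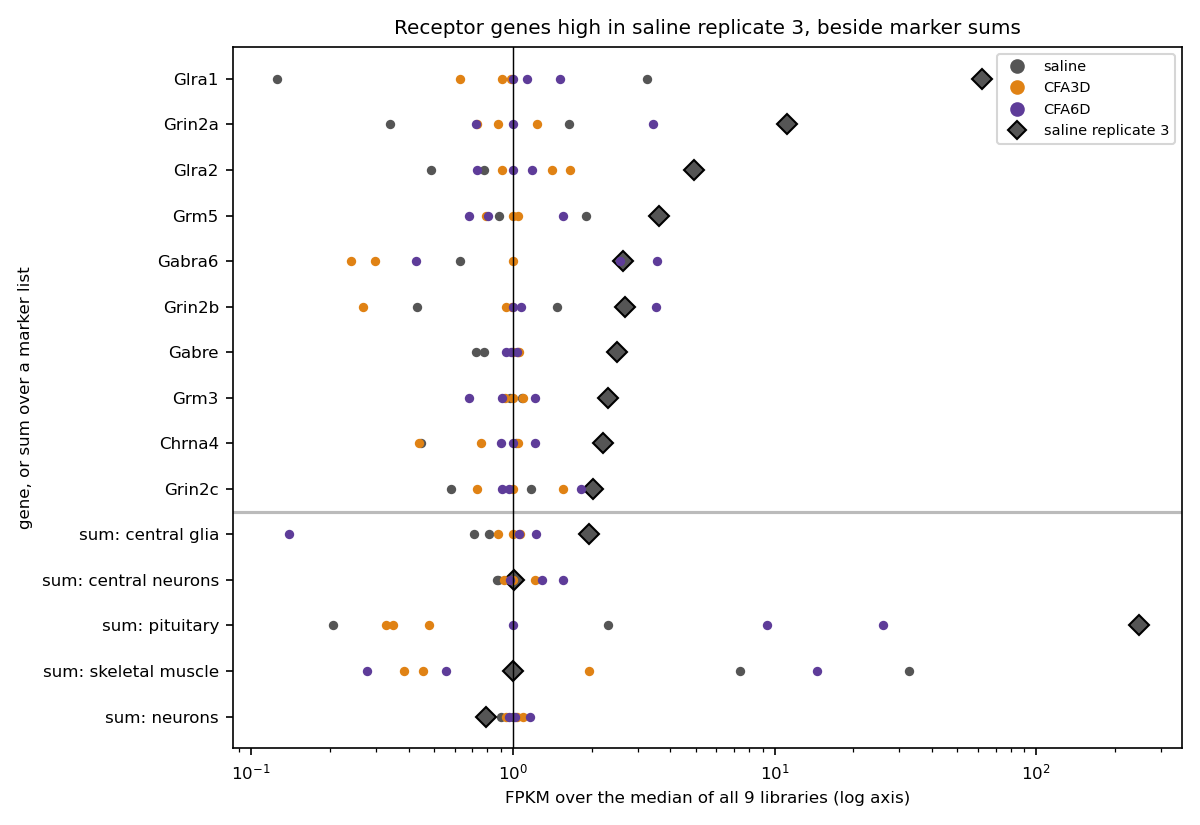
FPKM relative to the median of all 9 libraries (log axis) for 10 of the 11 members at least 2-fold above the median of the other 8 libraries in saline replicate 3 (diamonds), above summed levels of 5 marker lists. Diamonds are high for the glia and pituitary sums and lowest of all libraries for the neuron sum.

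Of the 295 member transcripts, 185 were annotated as protein coding and 175 were tested. In limma, 0 member transcripts passed an adjusted p of 0.05 in the CFA3D, CFA6D or pooled comparison with saline, against 0.0257%, 0.0196% and 0.0242% of all 66206 transcripts. At an unadjusted p under 0.05 there were 7 (4%, all transcripts 4.67%), 13 (7.43%, all 6.81%) and 12 (6.86%, all 5.77%).

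The upstream-start form of Gabbr1 (ENSMUST00000025338), whose start region is shown above, had the smallest p on day 6. It was at 8.49, 8.95 and 6.70 FPKM in saline, at 11.5, 11.01 and 11.05 FPKM in CFA3D and at 13.4, 12.8 and 31.8 FPKM in CFA6D. All 6 CFA libraries were above all saline libraries, and on day 6 the log2 difference was 1.13 ± 0.31 (SE, limma unadjusted p = 0.00612, adjusted p = 0.534). Without CFA6D replicate 6 it was 0.71. The internal-start form (ENSMUST00000172792) was at 33.4, 30.4 and 31.1 FPKM in saline, 33.5, 36.3 and 38.6 FPKM in CFA3D and 43.9, 37.8 and 12.9 FPKM in CFA6D, so the last library was high in the one form and low in the other. The upstream form made up 17.7% to 25.6% of the pair in 8 libraries and 71.1% in CFA6D replicate 6.

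Flop forms prevailed for Gria2, whose flip share was 12.7% to 25.3% in all 9 libraries. For Gria1 the flip share was 15.4% to 35.9% in 8 libraries and 77.3% in CFA3D replicate 3. The Grin1 forms with the 111-base exon made up 12.6% to 45.4% of the 4 coding forms compared, and the ranges of the 3 groups overlapped.

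For other pairs the split varied more between libraries than the gene sum. The Grik1 form with the 45-base exon (ENSMUST00000228188) was at 14.5, 2.98 and 2.95 FPKM in saline, 0.111, 0.954 and 3.24 FPKM in CFA3D and 0.0651, 5.80 and 2.44 FPKM in CFA6D. The form without it (ENSMUST00000023652) was at 0.118, 4.42 and 0.248 FPKM in saline, 7.93, 5.77 and 5.07 FPKM in CFA3D and 8.72, 6.65 and 2.11 FPKM in CFA6D. The share with the exon thus ran from 0.741% to 99.2%, while the Grik1 gene sum stayed between 20.5 and 31.7 FPKM. The coding form of Grik5 (ENSMUST00000003468) made up 38.0% to 46.7% of its pair with a form annotated for nonsense-mediated decay in 6 libraries and 99.7% to 99.9% in CFA3D replicate 3, CFA6D replicate 4 and CFA6D replicate 5, with a pair sum of 8.11 to 11.2 FPKM. These shares are estimates that divide reads between largely shared exons.

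**Figure D5:**
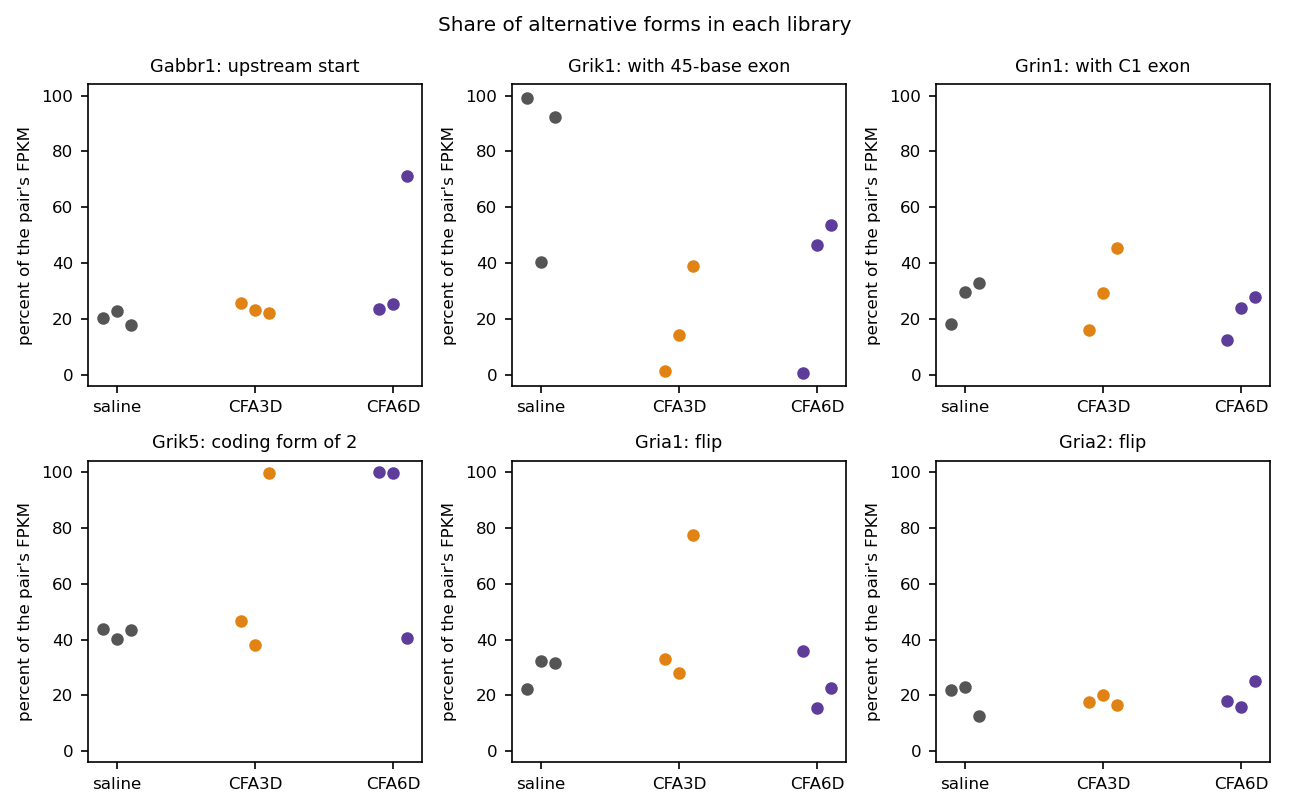
Share of the first-named form in the summed FPKM of each pair or set of forms (percent), 1 dot per library in replicate order. Gria2 (12.7% to 25.3%) holds a narrow range in all groups, whereas Grik1 (0.741% to 99.2%) and Grik5 (38.0% to 99.9%) jump between libraries of the same group.

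Low transcripts gave the smallest p-values on day 3. A Grm5 form (ENSMUST00000107263) was at 0.552, 0.363 and 0.752 FPKM in saline, listed at 0 in CFA3D and in CFA6D replicates 4 and 6, and at 0.332 FPKM in CFA6D replicate 5 (day 3 limma unadjusted p = 0.00138, adjusted p = 0.737). A Grik2 form (ENSMUST00000079751) was at 0.245, 0.319 and 0.166 FPKM in saline and listed at 0 in CFA3D (limma unadjusted p = 0.00413, adjusted p = 0.989).

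Genes that act with these receptors were counted in 6 lists with 69 genes, of which 67 were tested. At an unadjusted p under 0.05, 2 were higher and none lower on day 3 (all genes 3.65% and 0.801%), and 8 were higher and 2 lower on day 6 (all genes 8.22% and 2.85%), with none at an adjusted p under 0.05 in limma (smallest 0.156). Lhfpl4, which anchors GABA-A receptors at inhibitory synapses, was at 44.0, 46.3 and 41.0 FPKM in saline, 52.9, 50.1 and 55.5 FPKM in CFA3D and 69.4, 51.8 and 62.2 FPKM in CFA6D, without overlap on either day (day 6 log2 difference 0.47 ± 0.11 SE, adjusted p = 0.156). Nlgn2, a neuroligin of inhibitory synapses, was at 14.8, 14.0 and 16.9 FPKM in saline and 18.6, 20.7 and 18.1 FPKM in CFA6D (0.33 ± 0.10, adjusted p = 0.242). In the same list of 12 accessory and scaffold genes of GABA and glycine receptors, Shisa7 (0.45 ± 0.19, adjusted p = 0.431) was also higher on day 6, and 1 gene was lower.

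Of the 24 accessory genes of glutamate receptors, 3 were higher and 1 lower on day 6 at an unadjusted p under 0.05 (all genes 8.22% and 2.85%). Cacng7, an auxiliary AMPA receptor subunit, was at 16.6, 17.1 and 20.6 FPKM in saline and 25.2, 20.6 and 23.6 FPKM in CFA6D (log2 difference 0.35 ± 0.11 SE, adjusted p = 0.267). Dlg4, a postsynaptic scaffold, was at 23.7, 22.0 and 26.9 FPKM in saline and 30.7, 27.2 and 29.7 FPKM in CFA6D (0.28 ± 0.09, adjusted p = 0.288). Cacng5, the other higher gene, had an adjusted p of 0.389. Neto2, an auxiliary subunit of kainate receptors, was the lower one, at 1.87, 1.96 and 2.05 FPKM in saline and 1.35, 1.31 and 1.62 FPKM in CFA6D (−0.44 ± 0.14, adjusted p = 0.289). Cnih3, an AMPA receptor export factor, was at 0.777, 0.975 and 0.802 FPKM in saline, 1.12, 1.40 and 1.25 FPKM in CFA3D and 0.816, 0.742 and 0.746 FPKM in CFA6D. It was higher on day 3 than in saline (0.52 ± 0.18, limma unadjusted p = 0.0158, adjusted p = 0.997) and lower on day 6 than on day 3 (−0.64 ± 0.18, limma unadjusted p = 0.00483, adjusted p = 0.613).

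Genes of transmitter handling completed the lists. Slc17a6, the vesicular glutamate transporter VGLUT2, was at 32.9 to 43.8 FPKM over the 9 libraries, Slc17a7 (VGLUT1) at 18.1 to 41.1 and glutamine synthetase Glul, a satellite glial enzyme, at 172 to 246 FPKM. Of the 10 genes of this list, Slc17a7 alone had an unadjusted p under 0.05 on day 6 (log2 difference 0.54 ± 0.23 SE, limma adjusted p = 0.434), with overlap. None of the 12 genes of GABA and glycine synthesis, transport and chloride handling had one on either day. Slc12a2 was at 23.7 to 35.9 FPKM, and Slc12a5, the chloride exporter of central neurons, at 6.00 FPKM in saline replicate 3 and 0.743 to 1.94 FPKM elsewhere. Chat and Slc18a3, which make and load acetylcholine, averaged under 0.1 FPKM and were not tested, whereas Ache averaged 15.5 FPKM, and none of the 3 tested genes of acetylcholine handling had an unadjusted p under 0.05 on either day. Among the 6 nicotinic chaperones and modulators, Lynx1, a prototoxin that binds nicotinic receptors, was at 64.3 to 93.8 FPKM and had the 1 unadjusted p under 0.05 on day 6 (0.25 ± 0.11, limma adjusted p = 0.434).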

How the data were processed

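Each transcript has an FPKM value per library, as the authors deposited it, and the 9 library columns were mapped by title. The members' 295 transcripts are all in the mRNA table. The methods name reads trimmed with Trimmomatic and mapped to GRCm38 with CLC Genomics Workbench after ribosomal RNA removal, whereas the submitters' processing notes list Bowtie 0.12.2 and the build mm8, which could not be reconciled. Reads cannot be recounted from FPKM, and shared exons make values of single transcripts less certain than gene sums.

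Transcripts were joined to GENCODE M21 (101539 of 102122 in the mRNA table) and summed per gene. The 16096 gene sums that averaged 0.1 FPKM or more were compared as log2(FPKM + 0.1), which understates changes of low genes, in limma 3.58.1 (R 4.3.3) with all 9 libraries in a fit of the 3 groups, empirical Bayes moderation with a trend, and Benjamini-Hochberg adjustment over all gene sums, or over all 66206 transcripts tested. The script was tested on simulated data. With 3 libraries against 3, an exact permutation test cannot go below 0.1. Approximate read pairs came from the step between low values of FPKM times length. Replicate numbers did not pair the saline and CFA3D libraries (correlations of deviations 0.0873, −0.0802 and 0.0300).

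Members, lists and tests were chosen with earlier results of these data known. Named genes were the leading members of each family, all with an unadjusted p under 0.05, the 3 largest differences per comparison and, for transcripts, those with the smallest p; other genes named, such as Gabrd, were chosen after their values were seen. Alternatives were other pseudocounts, filters and normalizations, centring on neuronal markers, fewer groups, the highest transcript per gene, a replicate block and each library left out. The lncRNA and other noncoding transcripts were not used here. Counts cover all members, and values of some genes that the rule names are not reported here. Figures were drawn with matplotlib 3.10.9.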

Additional observations from a re-analysis of the deposited data

How the results depend on the processing

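No member passed an adjusted p of 0.05 in any setting tried, and the counts at an unadjusted p under 0.05 moved with the settings. Leaving out each library in turn gave 0 to 5 members for CFA3D against saline (2 with all libraries), 2 to 9 for CFA6D against saline (8), 0 to 3 for CFA6D against CFA3D (0) and 3 to 9 for both CFA days against saline (4). The highest counts against saline were without saline replicate 1, at 5, 9 and 9 (8.62%, 15.5% and 15.5%), where the share of all genes was also highest, at 9.47%, 12.4% and 11.8%. Over the libraries left out that share was 3.04% to 9.47% for CFA3D, 8.92% to 12.4% for CFA6D, 5.05% to 8.39% for CFA6D against CFA3D and 6.07% to 11.8% for both days. For CFA3D against saline the count was 0 without CFA3D replicate 1, CFA3D replicate 2 or CFA6D replicate 4, and 1 without CFA3D replicate 3, CFA6D replicate 6 or saline replicate 3. For CFA6D against saline it was 2 without CFA6D replicate 4, 4 without saline replicate 2 or saline replicate 3, and 5 without CFA3D replicate 2. For CFA6D against CFA3D it was 3 without CFA6D replicate 5, 2 without CFA3D replicate 2, and 1 without CFA3D replicate 3, CFA6D replicate 4, CFA6D replicate 6 or saline replicate 3. For CFA3D against saline the count was 1 with the highest transcript per gene (all genes 5.10%) and 1 with quantile normalization (all genes 3.10%). With only the groups compared it was 0 (all genes 3.76%). For CFA6D against saline it was 5, 3 and 4 under the same settings, and for CFA6D against CFA3D it was 2 with the highest transcript, 2 with quantile normalization and 1 with no filter.

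Among single genes and transcripts, 7 estimates changed sign. Over the libraries left out, Glra1 on day 6 ran from −3.0008 to 0.0479 on the log2 scale and Grin2a on day 3 from −1.7419 to 0.0792, the lowest values without saline replicate 1 and the highest without saline replicate 3. Grik2 was 0.25 on day 3 and 0.11 over both days with its highest transcript in place of the gene sum. Centred on neuronal markers, Grik5 was −0.0365 on day 6 and −0.0115 over both days, and Chrnb2 was −0.0056 over both days. Of the other estimates, 441 kept their sign and their side of an unadjusted p of 0.05, 81 lost it and 13 gained it.

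With the replicate number as a replicate block, 3 members had an unadjusted p under 0.05 in CFA3D against saline, 0 higher (all genes 1.76%) and 3 lower (5.17%, against 1.33% of all genes). The numbers only name the pools, and CFA6D shares none. The 10 members under a mean of 0.1 FPKM, tested only with no filter, reached at most 0.121 FPKM in any library. Whether depth or absence of the transcript gave these low values was not tested.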
